A study of Mus musculus with 15 samples.

Results

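Mitosis genes encode the machinery that compacts chromosomes, attaches them to the spindle, holds the cell until every chromosome is attached and then splits the cell. The genes described here come from a list of 35, and each was represented by the probe set that carries its symbol alone and has the highest mean over all arrays. Of the 35 listed genes 33 were measured, among 12393 genes measured in all. Ccnb1 and Cdca8 were not analysed here. Many of these genes are transcribed late in the cell cycle through the MuvB core, B-MYB and FOXM1, and are held down in resting cells by the DREAM complex. In the mammary gland, alveolar cells divide through pregnancy and largely stop dividing as milk secretion sets in around birth. In bulk samples such as these, fewer dividing cells and less mRNA per cell cannot be told apart.

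Expression was measured on 15 single-colour Affymetrix arrays with mRNA of cells that had been purified from digested mammary glands of female C57BL/6 mice. The mice were injected intraperitoneally with 5-azacytidine (AzaC), an inhibitor of DNA methylation, with valproic acid (VPA), an inhibitor of histone deacetylases, or with PBS. At pregnancy day 21 there were 3 AzaC, 3 VPA and 2 PBS arrays. In the groups labelled virgin, at an age of 9 weeks, there were 3 AzaC, 2 VPA and 2 PBS arrays. The labels used here give no dose or length of treatment, and they do not say whether arrays of 1 group came from separate mice or from pools. P-values therefore measure only the spread between these arrays, which may be technical, and groups of 2 or 3 arrays give a coarse estimate of it.

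The deposited values lie between 0 and 14.48 and are read here as log2 signals from that range, since their log base is not given in the sources used here. The array medians ran from 7.22 to 7.47. None of the 33 mitosis genes had a value of 0 on any array. The 5 milk protein genes on the marker list, among them Csn2 (beta-casein), averaged 14.13 to 14.29 on the pregnant AzaC arrays, 14.18 to 14.21 on the pregnant VPA arrays and 13.93 to 14.04 on the pregnant PBS arrays. On the arrays labelled virgin they averaged 13.90 to 14.19. The single values ran from 13.41 to 14.48, which is the top of the scale, so signals may be saturated and these genes cannot rank milk protein mRNA between the stages. They show only that it was detected at high signal on the arrays labelled virgin too. Markers of skeletal muscle, Acta1, Myh4 and Ckm, averaged 11.36 to 13.93 over the 15 arrays, and 6 fibroblast markers averaged 9.19 to 11.52. Every array therefore held mRNA of cell types other than mammary epithelium.

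Mitosis genes were lower after either inhibitor than after PBS at pregnancy day 21, and a few of them by enough to pass the test over all genes. With AzaC, 4 of the 33 measured genes fell, namely Bub1, Cenph, Kif20a and Kif23, while 3.81% of all genes fell. With VPA, 3 of 33 fell, namely Cenph, Ttk and Kif23, while 2.34% of all genes fell. None of the 33 rose with either inhibitor, while 3.76% of all genes rose with AzaC and 3.64% with VPA. The median change of the 33 genes was -1.29 with AzaC and -1.25 with VPA on the log2 scale, against 0.04 and 0.06 over all genes. With AzaC 32 of 33 changes were below 0, against 46.9% of all genes, and with VPA all 33 were, against 45.5% of all genes. Every AzaC array lay below both PBS arrays for 21 of the 33 genes, against 20.9% of all genes, and every VPA array did so for 16, against 17.6% of all genes. At an unadjusted p under 0.05, 29 of the 33 were lower with AzaC, against 12.2% of all genes, and 26 with VPA, against 9.39%. Both comparisons use the same 2 PBS arrays, so their values are not independent of each other. These counts depended on single arrays. With AzaC the count of 4 became 18 without AzaC replicate 2, 1 without AzaC replicate 1, and 0 without AzaC replicate 3 or without either PBS array. With VPA the count of 3 became 6 without VPA replicate 3, 1 without VPA replicate 1 or 2, and 0 without either PBS array. Over all genes, 1335 passed in either direction without AzaC replicate 2 and 14 to 177 without another array of the AzaC comparison, and 20 to 231 passed without 1 array of the VPA comparison. Of the 5 fits that each left out 1 array of the AzaC comparison, Kif23 passed in 2 and Bub1, Cenph and Kif20a in 1 each. Of the 5 fits for VPA, Cenph passed in 3, Kif23 in 1 and Ttk in 0, with adjusted p from 0.0514 to 0.243 for Ttk. The median change stayed below 0 throughout, from -1.83 to -0.83 with AzaC and from -1.91 to -0.76 with VPA, the smaller sizes both coming without PBS replicate 2.

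**Figure D1:**
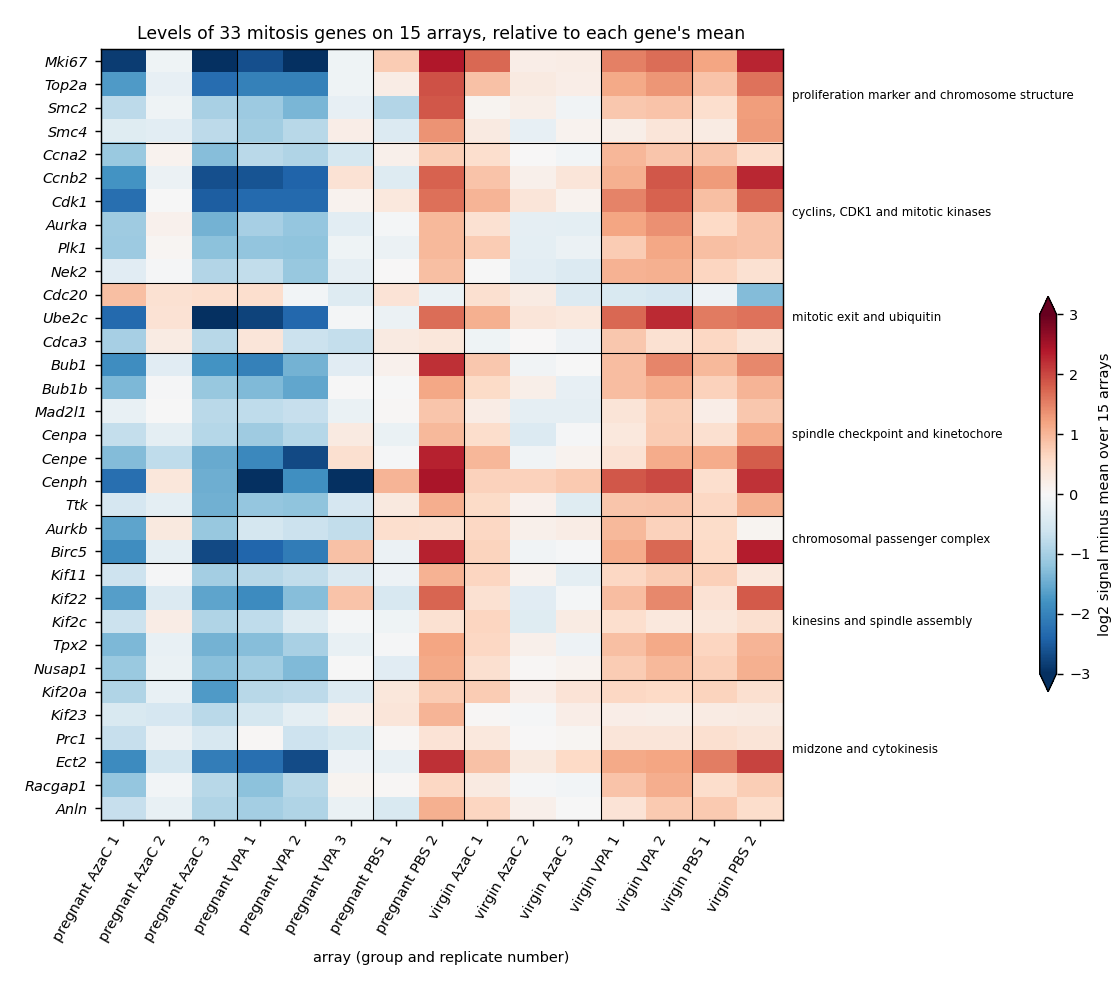
Levels of the 33 measured mitosis genes (rows, ordered by role) on the 15 arrays (columns, by group and replicate number), as log2 signal minus each gene's mean over the arrays. Most rows are blue on pregnant AzaC replicates 1 and 3 and pregnant VPA replicates 1 and 2, and red on pregnant PBS replicate 2 and on the virgin VPA and PBS arrays.

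Averaged over the 33 genes, the log2 level was 6.37, 7.44 and 6.13 on pregnant AzaC replicates 1, 2 and 3. It was 6.21, 6.22 and 7.35 on pregnant VPA replicates 1, 2 and 3, against 7.56 and 8.80 on pregnant PBS replicates 1 and 2. One array in each of these groups stood above the others of its group for most genes: AzaC replicate 2 was the highest of its group for 31 of 33 genes, VPA replicate 3 for 28 and PBS replicate 2 for 31. On the virgin arrays the same average was 8.13, 7.57 and 7.56 after AzaC and 8.37 and 8.56 after VPA, against 8.23 and 8.59 after PBS. There AzaC replicate 1 was the highest of its group for 29 genes. The pregnant AzaC and VPA arrays were thus all below the PBS arrays of their stage and below every virgin array in this average, with the nearest pair being 7.44 on pregnant AzaC replicate 2 and 7.56 on pregnant PBS replicate 1.

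**Figure D2:**
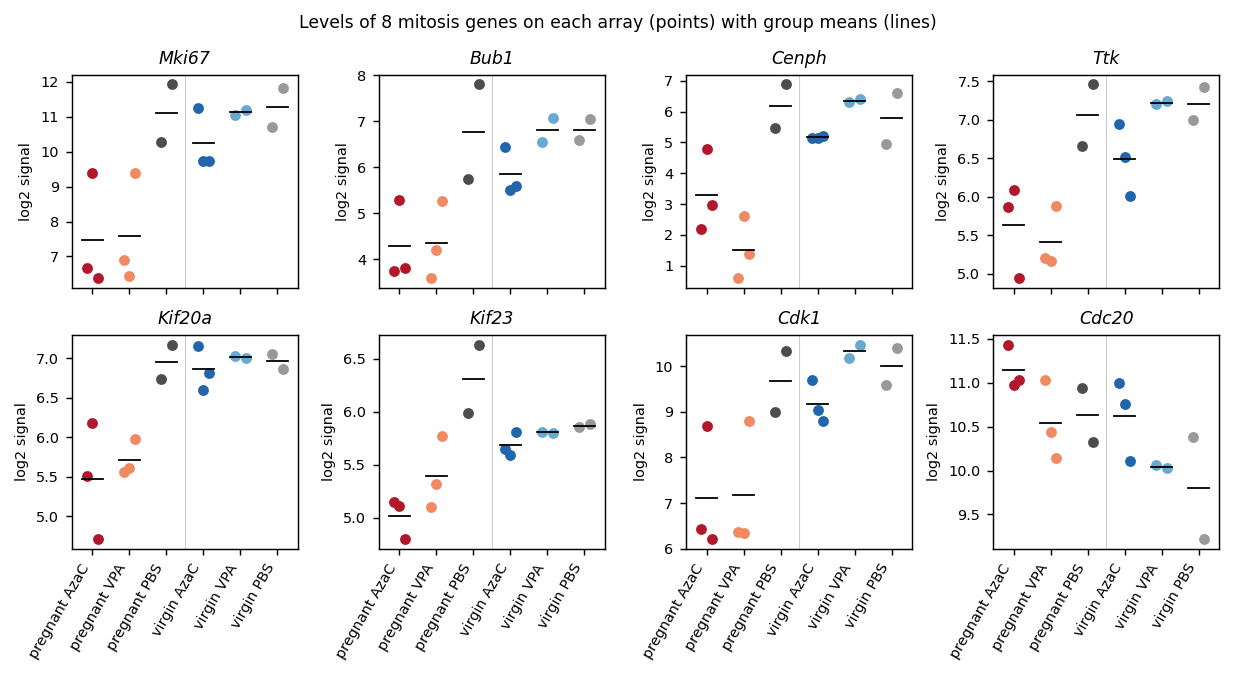
Log2 signal of 8 mitosis genes on each array (points) by group, with group means (lines). For all but Cdc20 the pregnant AzaC and VPA means lie below the pregnant PBS mean, and for Mki67, Bub1 and Cdk1 AzaC replicate 2 and VPA replicate 3 are the highest arrays of their groups.

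Promoters of 6 of these genes are shown because the members moved together across arrays and because 2 short motifs recur in promoters of genes of this kind. The first is the core of the cell cycle genes homology region, TTTGAA, which MuvB complexes bind. The second is the CCAAT box, CCAAT, which NF-Y binds. Each window holds the 120 bases before the RefSeq start site in build GRCm38.p6, and capitals mark a match to TTTGAA or to CCAAT on either strand, so that TTCAAA and ATTGG are the same motifs on the other strand. Top2a and Cdk1 are shown for their matches to both motifs in this window. Bub1, Ttk, Kif23 and Cenph are shown because they passed the test after AzaC or VPA. Kif20a passed with AzaC too, but no promoter was matched for it. Ttk and Kif23 have a match to TTTGAA beyond the windows shown, starting at bases 8 and 3 after the start site. No match to TTTGAA was found in the matched promoters of Bub1 and Cenph.
Top2a, chr11:99024190-99024309, minus strand: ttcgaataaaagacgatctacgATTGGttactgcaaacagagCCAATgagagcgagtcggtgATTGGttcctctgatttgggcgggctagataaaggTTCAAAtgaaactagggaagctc
Cdk1, chr10:69352913-69353032, minus strand: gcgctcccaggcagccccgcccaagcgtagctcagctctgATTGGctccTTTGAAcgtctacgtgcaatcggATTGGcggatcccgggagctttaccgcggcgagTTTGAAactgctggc
Bub1, chr2:127831860-127831979, minus strand: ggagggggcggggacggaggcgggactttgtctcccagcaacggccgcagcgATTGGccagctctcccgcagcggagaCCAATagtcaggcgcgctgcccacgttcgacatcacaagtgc
Ttk, chr9:83834569-83834688, plus strand: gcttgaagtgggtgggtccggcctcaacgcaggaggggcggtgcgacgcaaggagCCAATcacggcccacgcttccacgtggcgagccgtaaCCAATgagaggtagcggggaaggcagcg
Kif23, chr9:61946800-61946919, minus strand: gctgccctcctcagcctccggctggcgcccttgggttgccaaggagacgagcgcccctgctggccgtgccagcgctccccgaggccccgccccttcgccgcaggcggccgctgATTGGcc
Cenph, chr13:100775900-100776019, minus strand: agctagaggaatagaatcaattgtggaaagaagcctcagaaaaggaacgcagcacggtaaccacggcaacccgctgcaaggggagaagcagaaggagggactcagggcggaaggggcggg

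RefSeq promoters of 300 bases, 250 before and 50 after the start site, were matched for 30 of the 35 listed genes. TTTGAA occurred on either strand in 22 of these 30 (73.3%), against 4893 of 27025 mouse promoters of the same length (18.1%). CCAAT occurred in 25 of 30 (83.3%), against 37.9% of all promoters. Both motifs were present in 20 of 30 (66.7%), against 7.12% of all promoters. TTCCCGC, a core of the site bound by E2F factors, occurred in 1 of 30 (3.33%), that of Cenph, against 4.66% of all promoters. Within these promoters of 300 bases, 23 of the 30 matches to TTTGAA and 40 of the 56 matches to CCAAT began between 100 bases before and 50 bases after the start site. Positions were not counted in the other promoters, so no share over all promoters can be set beside these counts. A match describes letters in the promoter sequence and does not show that a factor binds there.

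Of the 7 spindle checkpoint and kinetochore genes, 2 fell with AzaC and 2 with VPA, against 3.81% and 2.34% of all genes. With AzaC all 7 had every AzaC array below both PBS arrays, against 20.9% of all genes. Bub1, a kinase that recruits checkpoint proteins to unattached kinetochores, had levels of 3.75, 5.28 and 3.81 on pregnant AzaC arrays and 3.58, 4.20 and 5.27 on pregnant VPA arrays, against 5.74 and 7.80 on pregnant PBS arrays. All 6 inhibitor arrays were below both PBS arrays. Its change was -2.49 ± 0.67 with AzaC (SE, adjusted p = 0.0456) and -2.42 ± 0.67 with VPA, where it did not pass the test (adjusted p = 0.0558). Most of its inhibitor signals were low, under 5. A second, dimmer probe set of Bub1, with a mean of 3.12 over the arrays, changed by -0.15 with AzaC. Cenph, a subunit of the inner kinetochore, had levels of 2.18, 4.78 and 2.97 on pregnant AzaC arrays and 0.59, 2.61 and 1.38 on pregnant VPA arrays, against 5.47 and 6.89 on pregnant PBS arrays. The groups did not overlap, and the fall was -2.87 ± 0.78 with AzaC (adjusted p = 0.0476) and -4.65 ± 0.78 with VPA (adjusted p = 0.0130). These are low signals: with values under 5 set to 5 both changes became -1.18, with adjusted p = 0.134 for AzaC and 0.143 for VPA. Ttk, the kinase Mps1 that starts the checkpoint signal, had levels of 5.87, 6.09 and 4.94 on pregnant AzaC arrays and 5.21, 5.16 and 5.88 on pregnant VPA arrays, against 6.66 and 7.46 on pregnant PBS arrays. It fell by 1.64 ± 0.39 on the log2 scale with VPA (adjusted p = 0.0370), and its change with AzaC, -1.43 ± 0.39, was just outside the threshold (adjusted p = 0.0505).

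The other kinetochore genes did not pass the test. Bub1b (BubR1, a part of the complex that inhibits the anaphase-promoting complex) averaged 5.47 ± 0.71 on pregnant AzaC arrays and 5.35 ± 0.83 on pregnant VPA arrays (SD, n = 3 each), against 6.88 ± 0.82 on pregnant PBS arrays (SD, n = 2). Cenpe, a kinesin that moves chromosomes to the metaphase plate, had differences of -2.33 ± 0.86 for AzaC (adjusted p = 0.115) and -2.53 ± 0.86 for VPA (adjusted p = 0.103). Its levels were 4.61, 5.16 and 4.41 on pregnant AzaC arrays and 3.99, 3.21 and 6.40 on pregnant VPA arrays, against 5.88 and 8.24 on pregnant PBS arrays, so that VPA replicate 3 lay above PBS replicate 1. Mad2l1, the checkpoint protein Mad2, and Cenpa, the histone H3 variant that marks centromeres, had smaller changes of -0.78 and -1.01 with AzaC and -0.99 and -0.94 with VPA.

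Of the 6 genes of the central spindle and cytokinesis, 2 fell with AzaC and 1 with VPA, against 3.81% and 2.34% of all genes. Kif23 (MKLP1), the kinesin of the centralspindlin complex, had levels of 5.15, 5.11 and 4.80 on pregnant AzaC arrays and 5.10, 5.32 and 5.77 on pregnant VPA arrays, against 5.99 and 6.63 on pregnant PBS arrays. Its fall was -1.29 ± 0.23 with AzaC (adjusted p = 0.0135) and -0.91 ± 0.23 with VPA (adjusted p = 0.0428), with no overlap between inhibitor and PBS arrays. The call rested on 1 of its 3 probe sets: with the mean of all 3, the change was -0.40 with AzaC (adjusted p = 0.386) and -0.20 with VPA (adjusted p = 0.705). Kif20a (MKLP2), which carries the chromosomal passenger complex to the midzone, had levels of 5.51, 6.18 and 4.71 on pregnant AzaC arrays and 5.56, 5.61 and 5.98 on pregnant VPA arrays, against 6.74 and 7.17 on pregnant PBS arrays. No inhibitor array reached a PBS array, and the change was -1.49 ± 0.35 with AzaC (adjusted p = 0.0294) and -1.24 ± 0.35 with VPA (adjusted p = 0.0591). Ect2, the exchange factor that activates RhoA at the division site, had changes of -2.48 ± 0.79 (adjusted p = 0.0773) and -2.68 ± 0.79 (adjusted p = 0.0679), neither past the threshold. Racgap1 (the partner of Kif23 in centralspindlin), Anln (anillin, a scaffold of the contractile ring) and Prc1 (a bundler of midzone microtubules) had changes between -1.01 and -0.68 with AzaC and between -1.02 and -0.58 with VPA, without a call.

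**Figure D3:**
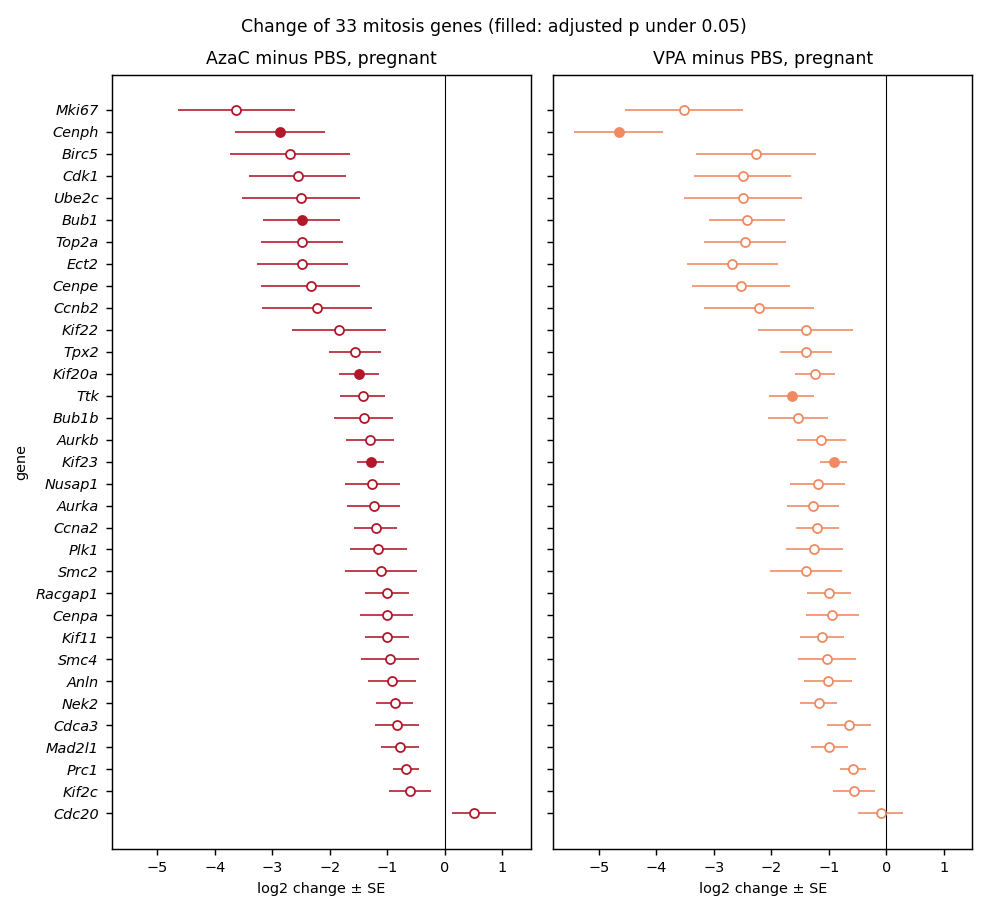
Log2 change of the 33 mitosis genes (rows) on pregnant arrays, AzaC minus PBS (left) and VPA minus PBS (right), with standard errors as bars and filled points where the adjusted p was under 0.05. Only Cdc20 lies to the right of 0, with AzaC, and the filled points are Cenph, Bub1, Kif20a and Kif23 for AzaC and Cenph, Ttk and Kif23 for VPA.

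None of the 6 measured cyclins, CDK1 and mitotic kinases passed the test with AzaC or VPA. All 6 were lower at an unadjusted p under 0.05 in both, against 12.2% of all genes with AzaC and 9.39% with VPA. Cdk1, the kinase that drives entry into mitosis, had levels of 6.43, 8.68 and 6.21 on pregnant AzaC arrays and 6.37, 6.35 and 8.80 on pregnant VPA arrays, against 9.00 and 10.34 on pregnant PBS arrays. AzaC replicate 2 and VPA replicate 3 lay just below PBS replicate 1, and the other inhibitor arrays lay far below both PBS arrays. The change was -2.56 ± 0.84 with AzaC (adjusted p = 0.0837) and -2.50 ± 0.84 with VPA (adjusted p = 0.101). Ccna2 and Ccnb2, cyclins that activate CDKs in S, G2 and M phase, had changes of -1.21 and -2.23 with AzaC and of -1.20 and -2.22 with VPA. Aurka (Aurora A, a spindle pole kinase), Plk1 (Polo-like kinase 1) and Nek2 (a centrosome kinase) had changes between -1.24 and -0.87 with AzaC and between -1.27 and -1.18 with VPA. For Ccnb2 and Plk1 the inhibitor arrays overlapped the PBS arrays in both comparisons.

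The proliferation marker Mki67, whose protein Ki-67 coats mitotic chromosomes, had the largest change of the 33 genes with AzaC and the second largest with VPA, but did not pass the test. It had levels of 6.68, 9.39 and 6.37 on pregnant AzaC arrays and 6.90, 6.45 and 9.40 on pregnant VPA arrays, against 10.28 and 11.93 on pregnant PBS arrays. All inhibitor arrays were below both PBS arrays, and the change was -3.63 ± 1.03 with AzaC (adjusted p = 0.0544) and -3.52 ± 1.03 with VPA (adjusted p = 0.0657). Top2a, the topoisomerase that untangles sister chromatids, had changes of -2.49 ± 0.71 (adjusted p = 0.0558) and -2.46 ± 0.71 (adjusted p = 0.0638). Smc2 and Smc4, the ATPase pair of condensin, had smaller changes of -1.12 and -0.96 with AzaC and -1.40 and -1.03 with VPA, and both overlapped the PBS arrays. Smc2 had levels of 6.55, 7.21 and 6.36 on pregnant AzaC arrays, against 6.46 and 9.19 on pregnant PBS arrays, so its AzaC change turned to 0.25 without PBS replicate 2.

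Neither of the chromosomal passenger genes passed the test. Aurkb (Aurora B, which corrects faulty attachments) had levels of 5.81, 7.68 and 6.24 on pregnant AzaC arrays and 6.86, 6.74 and 6.66 on pregnant VPA arrays, against 7.90 and 7.86 on pregnant PBS arrays. Its groups did not overlap, with changes of -1.30 ± 0.42 (adjusted p = 0.0803) and -1.13 ± 0.42 (adjusted p = 0.129). Birc5 (survivin) ranged from 5.16 to 7.58 on pregnant AzaC arrays and from 5.50 to 8.74 on pregnant VPA arrays, against 7.70 to 10.18 on pregnant PBS arrays, and VPA replicate 3 lay inside the PBS range. Among the 5 kinesin and spindle assembly genes, Kif11 (Eg5, which pushes spindle poles apart), Kif22 (a kinesin that binds chromosome arms), Kif2c (a microtubule depolymerase), Tpx2 (an activator of Aurora A) and Nusap1 (a microtubule bundler), the changes ran from -1.84 to -0.61 with AzaC and from -1.40 to -0.56 with VPA. None of them passed, and Tpx2 came nearest with AzaC, at -1.57 ± 0.46 (adjusted p = 0.0582).

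None of the 3 mitotic exit genes passed the test with AzaC or VPA. Ube2c, the conjugating enzyme of the anaphase-promoting complex, had levels of 6.41, 9.17 and 5.39 on pregnant AzaC arrays and 5.96, 6.37 and 8.68 on pregnant VPA arrays, against 8.56 and 10.42 on pregnant PBS arrays. AzaC replicate 2 and VPA replicate 3 lay inside the PBS range and the other inhibitor arrays below it, with a change of -2.50 ± 1.03 for AzaC (adjusted p = 0.153) and -2.49 ± 1.03 for VPA (adjusted p = 0.164). Cdca3, a trigger of mitotic entry, had changes of -0.83 and -0.65. Cdc20, the activator that starts anaphase, was the one gene with a change above 0 with AzaC, and every AzaC array lay above both PBS arrays, against 23.5% of all genes. It had levels of 11.43, 10.97 and 11.03 on pregnant AzaC arrays and 11.03, 10.44 and 10.14 on pregnant VPA arrays, against 10.94 and 10.33 on pregnant PBS arrays. The Cdc20 change was 0.51 ± 0.38 with AzaC (adjusted p = 0.442) and -0.10 ± 0.38 with VPA (adjusted p = 0.908).

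The sign for Cdc20 depended on the probe set. The probe set used, with the highest mean, had a change of 0.51 with AzaC and -0.10 with VPA, whereas the other 2 had -0.29 and -2.78 with AzaC and -0.32 and -2.48 with VPA. With the mean of all 3 the AzaC change was -0.85 (adjusted p = 0.182). Across the 15 arrays the used probe set had a Pearson r of -0.61 with the profile of the mitosis genes, and the other 2 had 0.82 and 0.97. Of the 33 genes 18 had 1 probe set and 15 had several, with 23 further probe sets among them. Of these 23, 20 had a change below 0 with AzaC and 19 with VPA. Those above 0 with AzaC were dim sets of Top2a, Cdca3 and Kif23, with means over the arrays of 1.80, 2.49 and 4.40. The second probe set of Bub1 had a change of -0.15 with AzaC and -0.53 with VPA. For Ccna2 the other probe set, of nearly the same mean, had larger changes than the used one, -2.35 with AzaC and -2.22 with VPA.

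**Figure D4:**
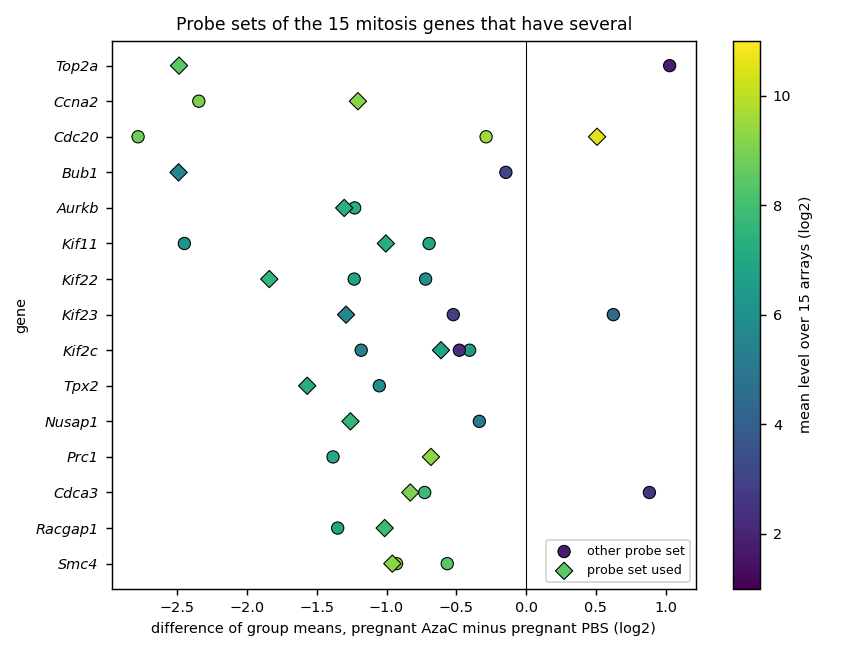
Difference of group means, pregnant AzaC minus pregnant PBS (log2), of every probe set of the 15 mitosis genes that have several, coloured by mean level over 15 arrays. Diamonds are the probe sets used and circles the others. The circles right of 0 are dim probe sets of Top2a, Kif23 and Cdca3, and the diamond right of 0 is Cdc20.

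On the arrays labelled virgin, neither inhibitor gave a call among the mitosis genes in the limma fit. With AzaC 0 of 33 passed, as did 0% of all genes, and 1 of 33 was lower at an unadjusted p under 0.05, against 2.59% of all genes. The median change was -0.71, against 0.06 over all genes, and 31 of 33 changes were below 0, against 42% of all genes. Every virgin AzaC array lay below both virgin PBS arrays for 18 of 33 genes, against 6.8% of all genes, and above both for 0, against 11.5%. The gene with the unadjusted p under 0.05 was Nek2, with a change of -0.79 ± 0.32 (adjusted p = 0.714). Mki67 had 11.26, 9.72 and 9.74 on virgin AzaC arrays, against 10.72 and 11.81 on virgin PBS arrays, which overlap. With VPA 0 of 33 passed, against 0.00807% of all genes, and no mitosis gene had an unadjusted p under 0.05, against 6.87% of all genes, 3.22% of them lower. The median change was 0.045, as over all genes, and changes ran from -0.69 to 0.58. Of the 33 changes 13 were below 0, against 44.1% of all genes. Virgin VPA arrays were below both PBS arrays for 3 of 33 genes, against 15% of all genes, and above both for 6, against 20.8%.

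Pregnant and virgin arrays under the same injection differed most for VPA. There 10 of 33 mitosis genes fell, against 2.96% of all genes, and none rose, against 3.7%. These were Ccna2, Cdk1, Aurka, Nek2, Bub1b, Cenph, Ttk, Kif20a, Tpx2 and Racgap1. The median change of the 33 was -1.78, against 0.06 over all genes, and every pregnant VPA array lay below both virgin VPA arrays for 30 of 33 genes, against 19.8% of all genes. The exceptions were Cenpe and Smc4, which overlapped, and Cdc20, which was higher on every pregnant VPA array, against 26.2% of all genes. In all 32 of 33 changes were below 0, against 45.4% of all genes, and 30 were lower at an unadjusted p under 0.05, against 10.6%. Nek2 had levels of 6.81, 6.41 and 7.28 on pregnant VPA arrays, against 8.59 and 8.63 on virgin VPA arrays, and fell by 1.78 ± 0.32 on the log2 scale (adjusted p = 0.0192). Aurka had 6.71, 6.54 and 7.38 on pregnant VPA arrays, against 8.89 and 9.08 on virgin VPA arrays, and fell by 2.11 ± 0.46 (adjusted p = 0.0273). Cenph had 0.59, 2.61 and 1.38 on pregnant VPA arrays, against 6.30 and 6.42 on virgin VPA arrays, and fell by 4.83 ± 0.78 (adjusted p = 0.0148). After raising all signals under 5 to 5, the Cenph change was -1.36 and no longer passed (adjusted p = 0.0970). The count of 10 became 14 without pregnant VPA replicate 3 and 2 without pregnant VPA replicate 1 or 2. Totals over all genes are not given here for these fits, so the counts cannot be read apart from such totals. When single arrays were left out, the median change ran from -2.045 to -1.565.

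For AzaC and for PBS the same comparison gave no call. Pregnant AzaC against virgin AzaC had 0 of 33 genes past the threshold in the limma fit, against 1.23% of all genes, 1.11% lower and 0.121% higher. The median there was -0.90, with 32 of 33 changes below 0, against 47.7% of all genes. Every pregnant AzaC array lay below every virgin AzaC array for 18 of 33 genes, against 14% of all genes, and above for 0, against 8.81%. At an unadjusted p under 0.05, 17 of 33 were lower there, against 10.5% of all genes, and Kif20a came nearest, with -1.39 ± 0.31 (adjusted p = 0.0583). Without pregnant AzaC replicate 2 the count was 6, but the total over all genes in that fit is not given here. Pregnant PBS against virgin PBS had 0 of 33 past the threshold, against 0% of all genes lower, and 0 of 33 at an unadjusted p under 0.05, against 4.2% of all genes. The median change was -0.27, against 0.025 over all genes, and 29 of 33 changes were below 0, against 45.8% of all genes. Only Cdca3 had both pregnant PBS arrays below both virgin PBS arrays, while only Kif23 had both above, against 13.4% and 15% of all genes. The median change of the 33 was 0.34 without pregnant PBS replicate 1 and -0.87 without pregnant PBS replicate 2.

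Whether the inhibitor effect depended on the stage was tested as the pregnant change minus the virgin change. For AzaC 0 of 33 mitosis genes passed, as did 0% of all genes, with a median difference of -0.71, and 3 of 33 were lower at an unadjusted p under 0.05, against 8.17% of all genes. For VPA 0 of 33 passed, against 0.315% of all genes, with a median difference of -1.45, and 15 of 33 were lower at an unadjusted p under 0.05, against 9.01% of all genes. In both tests all 33 differences were below 0, against 49.8% and 47.5% of all genes. When single arrays were left out, the median difference ran from -1.31 to -0.15 for AzaC and from -2.05 to -0.86 for VPA. Cenph came nearest for VPA, with -5.23 ± 1.15 (adjusted p = 0.0710), followed by Nek2 with -1.68 ± 0.48 (adjusted p = 0.112). On pregnant arrays 0 of 33 genes differed between AzaC and VPA, as did 0% of all genes, the median difference was -0.01, and 0 of 33 had groups without overlap, against 5.54% of all genes lower and 2.52% higher with AzaC. Cenph had the largest difference, 1.78 ± 0.70 higher with AzaC (unadjusted p under 0.05, adjusted p = 1). On virgin arrays 0 of 33 differed in the limma fit, as did 0% of all genes, 3 were lower with AzaC at an unadjusted p under 0.05, against 2.49% of all genes, and the median difference was -0.78. There 22 of 33 had every AzaC array below both VPA arrays, against 13.7% of all genes.

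Across the 15 arrays the mitosis genes varied together, as a description of these arrays, which share groups, preparation and scaling. The Pearson r of each gene with the mean profile of the other members lay between 0.70 (Cdca3) and 0.99 (Top2a) for 32 of the 33, with Spearman's rho between 0.72 and 0.99, and was -0.63 for Cdc20. The highest level of 17 genes was on pregnant PBS replicate 2. The spread over the arrays differed widely, from an SD of 0.40 for Prc1 to 2.00 for Cenph and 1.99 for Mki67. Outside the members, the genes most like their mean profile over the 15 arrays were Pbk (r = 0.98), Cep55, Kif4, Cks2, Shcbp1, Spc25, Ncapg, Cenpf, Ckap2 and Cip2a (r = 0.97), 8 of these 10 being on the lists below. Pbk had levels of 6.98, 8.20 and 6.77 on pregnant AzaC arrays and 6.74, 7.16 and 7.89 on pregnant VPA arrays, against 8.39 and 10.01 on pregnant PBS arrays.

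Other genes of the cell cycle were counted from pathway lists. Over all genes 3.81% fell and 3.76% rose with AzaC, and 2.34% fell and 3.64% rose with VPA. At an unadjusted p under 0.05, 12.2% of all genes were lower with AzaC and 9.39% with VPA. In lists this short, a count of 1 says little beside these shares. Of 14 further mitotic kinases, phosphatases and cyclins, 2 fell with AzaC and 2 with VPA, in each case Wee1, the kinase that restrains CDK1, and Cdc25b, a phosphatase that activates it. The change of Wee1 was -0.91 with AzaC and -1.02 with VPA, and that of Cdc25b -0.83 with AzaC and -0.67 with VPA. Of 22 further kinetochore genes 0 passed with AzaC, where 9 were lower at an unadjusted p under 0.05, and 1 fell with VPA, Cenpc1 (the centromere protein CENP-C), by 0.89 ± 0.20 on the log2 scale (adjusted p = 0.0321). Cenpm came nearest with AzaC, at -1.80 ± 0.53 (adjusted p = 0.0593). Of 17 further spindle and cytokinesis genes 1 fell with each inhibitor, Spag5 (astrin), which had levels of 5.12, 6.27 and 4.33 on pregnant AzaC arrays and 5.37, 5.05 and 5.66 on pregnant VPA arrays, against 7.28 and 8.07 on pregnant PBS arrays. Of 14 condensin, cohesin and separase genes 2 fell with AzaC, Ncapg2 and Ncaph, and 1 with VPA, Ncapg2, all condensin subunits. Of 15 genes of the anaphase-promoting complex and its regulators 0 passed with either inhibitor in the limma fit, with 2 and 1 lower at an unadjusted p under 0.05, and Anapc2 came nearest, at 1.09 with AzaC and 1.11 with VPA (adjusted p = 0.0809 and 0.0852).

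The DNA replication list held more calls than any of the mitotic lists. In it 10 of 23 measured genes fell with AzaC, against 3.81% of all genes, and 14 of 23 with VPA, against 2.34%. Uhrf1, which recruits the maintenance methyltransferase to replicated DNA, had levels of 5.44, 7.97 and 4.63 on pregnant AzaC arrays and 5.23, 5.21 and 7.35 on pregnant VPA arrays, against 9.08 and 10.17 on pregnant PBS arrays. Its change was -3.61 ± 0.92 with AzaC (adjusted p = 0.0374) and -3.70 ± 0.92 with VPA (adjusted p = 0.0404). Dtl, a ubiquitin ligase subunit active in S phase, changed by -3.22 ± 0.61 (adjusted p = 0.0161) and -3.66 ± 0.61 (adjusted p = 0.0130). AzaC counts for this list were 15 without AzaC replicate 2 and 0 without AzaC replicate 1 or 3. VPA counts were 4 without VPA replicate 1 or 2 and 8 without VPA replicate 3. Fits that left 1 array in a group are not counted for this list. Totals over all genes moved widely in the same fits, as given above, so these counts cannot be read apart from those totals.

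Among 17 cell cycle transcription factors 1 rose and 2 fell with each inhibitor. Of all genes 3.76% rose and 3.81% fell with AzaC, and 3.64% rose and 2.34% fell with VPA. Rb1, the retinoblastoma protein that holds back E2F factors, rose, with levels of 11.32, 10.67 and 11.91 on pregnant AzaC arrays and 11.35, 11.29 and 11.15 on pregnant VPA arrays, against 8.21 and 8.52 on pregnant PBS arrays. Its change was 2.94 ± 0.64 (adjusted p = 0.0243) and 2.90 ± 0.64 (adjusted p = 0.0292). Tfdp1, the partner of E2F factors in DNA binding, had a change of -1.01 ± 0.15 with AzaC (adjusted p = 0.0100) and -0.92 ± 0.15 with VPA (adjusted p = 0.0130). Rbl1, the pocket protein p107 of the DREAM complex, had -0.90 ± 0.19 with AzaC (adjusted p = 0.0231) and -1.19 ± 0.19 with VPA (adjusted p = 0.0128). Foxm1, an activator of genes of the G2 and M phases, had levels of 8.70, 9.09 and 8.38 on pregnant AzaC arrays and 8.24, 9.38 and 9.31 on pregnant VPA arrays, against 10.03 and 10.75 on pregnant PBS arrays. It did not pass, at -1.67 ± 0.47 (adjusted p = 0.0549) and -1.41 ± 0.47 (adjusted p = 0.0994). Mybl2 (B-MYB) had -0.54 and -0.74 and E2f1 had 0.21 and 0.14, also without a call. Of 7 CDK inhibitors 1 rose with each inhibitor, against 3.76% of all genes with AzaC and 3.64% with VPA. This was Cdkn1b (p27), with 9.92, 9.94 and 9.97 on pregnant AzaC arrays and 9.96, 9.99 and 10.03 on pregnant VPA arrays. It had 7.88 and 8.79 on pregnant PBS arrays. The Cdkn1b change was 1.61 ± 0.28 (adjusted p = 0.0121) and 1.66 ± 0.28 (adjusted p = 0.0130). None of the calls named from these lists held in all 5 fits that each left out 1 array. Cdkn1b passed in 4 of 5 fits with each inhibitor, Tfdp1 in 3 of 5 with each, Rbl1 in 2 with AzaC and 4 with VPA, Ncapg2 in 1 with AzaC and 4 with VPA, and Dtl in 1 with AzaC and 3 with VPA. Rb1 and Spag5 passed in 1 with AzaC and 0 with VPA, and Wee1, Cdc25b, Cenpc1, Ncaph and Uhrf1 in 2 or fewer.

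**Figure D5:**
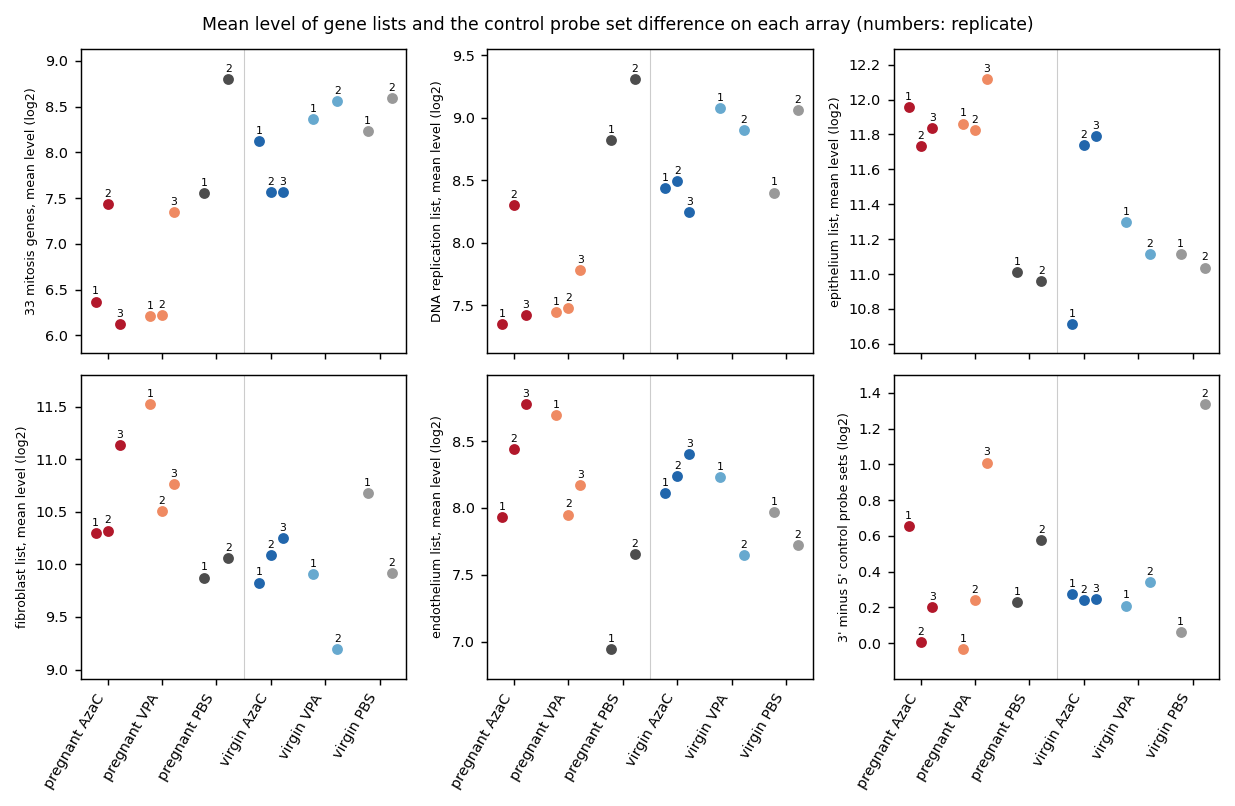
Mean log2 level of the 33 mitosis genes, of the DNA replication list and of the epithelium, fibroblast and endothelium marker lists, and the 3' minus 5' control signal, on each array (points, numbered by replicate) by group. The pregnant AzaC and VPA arrays are below the pregnant PBS arrays in the first 2 panels and above them in the 3 marker panels, and pregnant VPA replicate 3 and virgin PBS replicate 2 have the highest 3' minus 5' differences.

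Averaged over each list, markers of several cell types moved with the same groups, in the opposite direction to the mitosis genes. Over all genes 3.76% rose with AzaC and 3.64% with VPA. The 10 epithelium markers averaged 11.74 to 11.96 on pregnant AzaC arrays and 11.83 to 12.12 on pregnant VPA arrays, against 10.96 to 11.01 on pregnant PBS arrays. Of these 10, 2 rose with VPA (Cdh1 and Cldn4) and 0 with AzaC. Not every epithelium marker moved this way. The changes with AzaC and VPA were -0.20 and -0.02 for Cldn3, 0.07 and 0.07 for Krt5 and 0.26 and 0.03 for Elf5. Krt8, a keratin of luminal cells, had levels of 13.17, 12.51 and 12.95 on pregnant AzaC arrays and 12.46, 12.62 and 13.36 on pregnant VPA arrays, against 11.55 and 11.63 on pregnant PBS arrays (adjusted p = 0.0866 and 0.111). On the virgin arrays the epithelium markers averaged 10.72, 11.74 and 11.79 after AzaC and 11.30 and 11.12 after VPA, against 11.11 and 11.04 after PBS. Virgin AzaC replicate 1, the lowest of these, was the array with the highest mitosis level of its group. The 6 fibroblast markers averaged 10.30 to 11.14 on pregnant AzaC arrays and 10.51 to 11.52 on pregnant VPA arrays, against 9.87 to 10.06 on pregnant PBS arrays, with 0 and 1 of 6 past the threshold. The 6 endothelium markers averaged 7.93 to 8.77 and 7.95 to 8.69, against 6.94 to 7.65 on pregnant PBS arrays, with 1 of 6 past the threshold in each. The 6 macrophage markers averaged 9.23 to 9.52 and 9.43 to 9.79, against 8.62 to 8.90 on pregnant PBS arrays. Among them Adgre1 went the other way, with changes of -0.29 with AzaC and -0.27 with VPA. None of the 6 macrophage, 3 adipocyte, 6 lymphocyte, 3 neutrophil and 3 skeletal muscle markers measured passed the threshold with AzaC or VPA. None of the markers was at 0 on any array. The 3' minus 5' difference of control probe sets, a measure of RNA quality, was 1.01 on pregnant VPA replicate 3 and 1.34 on virgin PBS replicate 2 and between -0.04 and 0.66 on the other arrays. Without these 2 arrays 6 of 33 mitosis genes fell with AzaC and 6 with VPA at pregnancy day 21, while 9.5% of all genes passed in either direction with AzaC and 3.15% with VPA. Counts with this difference as a covariate are given below. Beyond these fits, the part of RNA quality in the changes of the mitosis genes was not tested. The part of cell composition was not tested.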

How the data were processed

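The authors deposited 1 value per probe set and array from single-colour Affymetrix arrays, here read as log2 values from their range. Background correction, summary, normalization and log base are not given in the sources used here. Of 22690 probe sets, 20380 carry 1 gene symbol in the platform's annotation, 691 several and 1619 none. Each gene was represented by its single-symbol probe set with the highest mean over 15 arrays, which gave 12393 genes. A linear model with 6 group means over the 15 arrays was fitted with limma 3.58.1 in R 4.3.3 (lmFit, eBayes), and p-values were adjusted over all genes by the Benjamini-Hochberg method and called at 0.05. "Changed" means past that threshold, and ± after a change is its standard error. The fit was tested on simulated data. Replicate numbers were not treated as pairs: of 33 pairs of equally numbered arrays 13 had a correlation of deviations over 0.1, with a range of -0.37 to 0.59.

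The genes and lists were chosen with earlier results of these data known. Outside the members, the text names in each pathway list the 2 genes past the threshold with the largest change (or that with the smallest p), the 10 genes most like the members, Foxm1, Mybl2, E2f1, Csn2 and Krt8. Other examples, such as Cdh1 and Cldn4, make up counts that were small. Cldn3, Krt5, Elf5 and Adgre1 are named as markers that moved little or went against the average of their list. Promoters are from RefSeq (GRCm38.p6). Alternatives tried were quantile normalization, a filter on dim genes, the mean of a gene's probe sets, other variance settings, fewer arrays in the fit, a replicate block, a floor at 5 and RNA quality as a covariate.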

Additional observations from a re-analysis of the deposited data

Results flagged for a closer look

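Tfdp1, which encodes DP1, the partner of E2F factors, was the 1 named gene whose VPA effect differed between the stages by a test of the difference itself. It had levels of 9.30, 9.17 and 9.13 on pregnant VPA arrays, against 9.99 and 10.24 on pregnant PBS arrays, and of 9.92 and 9.69 on virgin VPA arrays, against 9.45 and 9.39 on virgin PBS arrays. The pregnant VPA arrays were all below their PBS arrays and the virgin VPA arrays above theirs. The PBS arrays differed as well, with Tfdp1 0.695 higher on pregnant than on virgin PBS arrays, without overlap. With AzaC, the pregnant change minus the virgin change was of similar size, -1.365 ± 0.21, but did not pass (SE, limma interaction, adjusted p = 0.124). With VPA, the pregnant change of -0.92 minus the virgin change of 0.39 (rounded) was -1.3 ± 0.22 (SE, limma interaction, adjusted p = 0.0483). It passed under 5 of 9 other settings, with adjusted p from 0.00813 to 0.0806, and under 0 of the 9 fits that leave out 1 array, with adjusted p from 0.0556 to 0.194.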

How the results depend on the processing

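For AzaC against PBS at pregnancy day 21 the count of 4 mitosis genes became 7 after quantile normalization, 11 without dim genes, 11 with a trended and robust variance, 8 with the 3' minus 5' difference as a covariate, 2 with the mean of all probe sets, with a floor at 5, with the replicate block or with every probe set tested on its own, and 0 with the arrays of the comparison alone. Leaving out single arrays gave 0 to 18. For VPA against PBS the count of 3 became 5 after quantile normalization, 10 without dim genes, 10 with the trended variance, 8 with the covariate, 6 without the 2 arrays of high 3' minus 5' difference, and 1 with the replicate block or the compared arrays alone, with 0 to 6 when leaving out single arrays. For pregnant against virgin AzaC the count of 0 became 1 without dim genes, with the trended variance, the floor or the covariate, and 0 to 6 without single arrays. For pregnant against virgin VPA the count of 10 became 22, 21, 6 and 20 under those 4 settings, 2 with the replicate block and 0 to 14 without single arrays. The VPA interaction count of 0 became 1 with the trended variance, and that of AzaC 0 to 1 without single arrays. Cdc20 turned to -0.85 with AzaC under the mean of probe sets, and with VPA to 0.072 under the replicate block and 0.10 without the 2 arrays, with -0.40 to 0.21 without single arrays. Smc2 with AzaC ran from -2.48 to 0.25 without single PBS or AzaC arrays. The cause was not tested. Totals over all genes moved with the settings too, and are given here for some settings only. A count of mitosis genes under another setting therefore cannot be read apart from the total under that setting. Over all genes, 938 passed with AzaC, against 1445 without dim genes, 1578 with the covariate, 466 with the block, 0 with the compared arrays alone and 14 to 1335 without single arrays. With VPA 741 passed, against 1181, 1300, 241 and 364 under the same settings, 390 without the 2 arrays and 20 to 231 without single arrays. For pregnant against virgin VPA 825 passed, against 1289, 1425 and 239 without dim genes, with the covariate and with the block. Where 1 array of a pair was left out, the lone array was assumed to vary like the other groups. Leaving out the 2 arrays and testing every probe set were chosen after seeing the data.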
